A study of Mus musculus with 66 samples.

Results

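Transcripts of the nucleus accumbens were measured in iMSN-D2RKO mice late in the light phase, 8 h after a single injection of cocaine or saline. Of the 66 libraries of the series, 6 belong to this comparison, 3 iMSN-D2RKO libraries harvested at ZT11 after saline and 3 after cocaine at 20 mg/kg, both injected intraperitoneally at ZT3 (ZT, hours after lights on). A gene was included when at least 1 of the 6 libraries reached 1 FPKM (fragments mapped to a gene, scaled to its transcript length and to the mapped reads of the library), a rule that kept 13507 of the 24138 listed genes. All 6 libraries come from male mice of 3 to 5 months, of strain C57BL/6 as labelled (C57BL/6J in the methods of the study), that carry D2R flox/flox and D1R-CRE+/-. The promoter of the D1 receptor gene drives Cre, and the D2 receptor is lost from medium spiny neurons of the indirect pathway, the iMSNs, because their embryonic precursors express the D1 receptor too. Other D2 receptors of the tissue, on dopaminergic terminals and on interneurons, remain. The groups used for comparison are 3 saline and 3 cocaine libraries of mice labelled wild type (WT; whether they carry the flox alleles is not given in the sources used here) at ZT11, and 3 and 3 of iMSN-D2RKO mice at ZT7. The labels do not say how many mice make up a library, so p-values measure only the spread between these libraries.

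The D2 receptor couples to inhibitory G proteins and holds down cAMP signalling in iMSNs, the striatal output neurons that also carry an adenosine receptor (Adora2a) and enkephalin. The D1 receptor does the opposite in the neurons of the direct pathway. Cocaine blocks the dopamine transporter and raises extracellular dopamine, which acts on both populations. Immediate early genes respond to it within an hour or so and later genes over several hours, and the clock genes of the striatum cycle over the day.

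The tissue label was checked against markers of spiny neurons, which were abundant in each of the 6 libraries. Ppp1r1b, which encodes the phosphatase regulator DARPP-32, read 1124, 1024 and 970.3 FPKM after saline and 1104, 1095 and 874 FPKM after cocaine. Rgs9, a regulator of G protein signalling enriched in striatum, read 211, 194 and 187 FPKM against 208, 187 and 185 FPKM. Of the 6 libraries, saline replicate 1 alone held high levels of choroid plexus transcripts, with Ttr at 1104 FPKM. Results that rest on it are given with and without it. Total FPKM ran from 376165 to 389841 and the number of genes at 1 FPKM or more from 12800 to 13015 over the 6 libraries.

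At ZT11, no gene differed between cocaine and saline at an adjusted p under 0.05 (limma on log2(FPKM + 1), all 66 libraries, two-sided, Benjamini-Hochberg). An unadjusted p under 0.05 was reached by 52 genes, 0.385% of those tested, 17 of them higher after cocaine (0.126%) and 35 lower (0.259%). A fit to the 6 libraries alone had an unadjusted p under 0.05 for 168 genes (1.24%), 80 higher (0.592%) and 88 lower (0.652%), and called 1 gene (0.0074%), the small nucleolar RNA Snora78 described below. In 627 genes (4.64%) the 3 cocaine values all lay on one side of the 3 saline values, 298 higher (2.21%) and 329 lower (2.44%). For a gene without any difference such a separation has a probability of 0.1, and an unadjusted p under 0.05 nominally one of 0.05. The shares of genes found here are lower than these. With 3 libraries against 3, an exact permutation test of a single gene cannot give a p below 0.1, so none is given for single genes.

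The differences were small for genes of moderate or high level. Of the 9458 genes with a mean of at least 5 FPKM over the 6 libraries, 98.2% differed by less than 0.25 on the log2 scale, and the middle 50% of them lay between −0.0496 and 0.0424. The median size of the log2 difference was 0.046, beside 0.0699 for WT mice at ZT11 and 0.307 for iMSN-D2RKO mice at ZT7. Differences over 1 were found for 29 genes, of which 25 are entries shorter than 200 nt or with the symbol of a small RNA. The other 4 are Ttr, 1500015O10Rik, Pla2g4e and Rpl29, and apart from Pla2g4e each has 1 saline library far from the other two.

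The precision of these differences depends on which libraries set the spread. The 3 saline libraries had a median SD over genes of 0.0996 on the log2 scale and the 3 cocaine libraries 0.109, which are among the tightest groups of the series, where the highest is 0.379. With the spread shared over all 66 libraries, the median 95% confidence interval of a log2 difference was ±0.449 for genes with a mean of at least 5 FPKM. In the fit to the 6 libraries it was ±0.215. Intervals given below for single genes are from the fit to the 6 libraries.

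**Figure D1:**
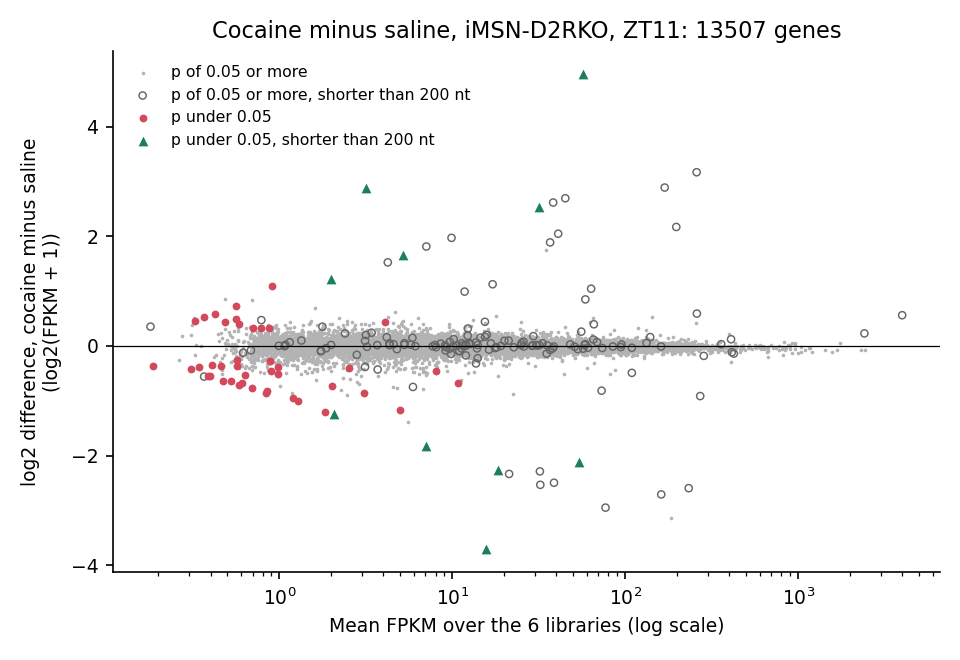
Log2 difference between the cocaine and saline means (log2(FPKM + 1), vertical axis) against the mean FPKM of the 6 libraries (horizontal log axis) for the 13507 genes tested. The genes with an unadjusted p under 0.05 in the 66-library fit are coloured, entries shorter than 200 nt are drawn with their own symbols, and 98.2% of genes with a mean of at least 5 FPKM lie within 0.25 of 0.

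The receptors that define the spiny neurons overlapped between the groups. Drd2, the gene targeted in iMSNs (chromosome 9, 49340627 to 49408177, GRCm38), read 103, 101 and 96.8 FPKM after saline and 90.8, 120 and 87.9 FPKM after cocaine, a log2 difference of −0.02. Over the series it ran from 78.03 to 375 FPKM in the 33 iMSN-D2RKO libraries (median 112) and from 99.1 to 304 FPKM in the 33 WT libraries (median 129), so the genotypes overlap. A value for the whole gene does not check the deletion, which removes part of the gene in a part of the cells. Drd1 read 109, 112 and 103 FPKM against 115, 80.6 and 100 FPKM, with 1 cocaine library below the rest. In tissue, fewer cells of a type and less RNA per cell cannot be told apart. Adora2a, the adenosine receptor of iMSNs, read 161, 185 and 154 FPKM against 140, 189 and 150 FPKM, and the 95% interval of its log2 difference ran from −0.376 to 0.230.

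A list of 20 genes of dopamine receptors and spiny neuron signalling lay close to 0. Of the 20, 5 had a higher and 15 a lower mean after cocaine, with a median log2 difference of −0.0256 and none past the adjusted threshold. The counts were 8 and 12 after quantile normalization. Drd3, the D3 receptor, read 0.682, 2.80 and 1.47 FPKM after saline and 2.37, 2.38 and 2.16 FPKM after cocaine. The cocaine values lie inside the saline range, and the log2 difference of 0.40 had an interval from −0.225 to 1.02. Gpr6, an orphan receptor of iMSNs, was the 1 of the 20 whose groups did not overlap, beside 4.64% of all genes, at 80.7, 94.98 and 79.8 FPKM against 78.1, 77.5 and 79.2 FPKM, and its log2 difference of −0.11 had an interval from −0.316 to 0.0864.

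Peptides of the spiny neurons varied more between libraries of one group. Penk, the enkephalin precursor of iMSNs, read 1631, 1643 and 1561 FPKM after saline and 1966, 1211 and 1411 FPKM after cocaine, so that the cocaine values lie on both sides of the saline values. Pdyn, the dynorphin precursor of the direct pathway, read 29.5, 79.1 and 57.9 FPKM against 84.7, 82.6 and 56.2 FPKM. Its log2 difference of 0.50 (SE 0.34) had an unadjusted p of 0.146 in the limma fit to 66 libraries, with 1 low saline library. Tac1, the substance P precursor, read 178, 233 and 194 FPKM against 226, 255 and 179 FPKM. Of the 17 tested peptides and opioid receptors 7 were higher and 10 lower, with a median of −0.00778.

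Oprm1, the mu opioid receptor, was the 1 member of the 17 whose groups did not overlap, beside 4.64% of all genes. It read 2.51, 2.58 and 2.62 FPKM after saline and 4.10, 3.08 and 3.10 FPKM after cocaine, a log2 difference of 0.30 with an interval from 0.0460 to 0.558. Its p was 0.0267 in limma's fit to the 6 libraries and 0.525 in the fit to 66, and it did not pass the adjusted threshold in either.

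Kcnd1 and Gabrd, a voltage-gated potassium channel and the delta subunit of extrasynaptic GABA-A receptors, overlapped between the groups. Kcnd1 read 3.57, 4.00 and 4.33 FPKM after saline and 4.17, 4.84 and 3.99 FPKM after cocaine, with a log2 difference of 0.10 and an interval from −0.128 to 0.333. Gabrd read 81.7, 96.1 and 76.0 FPKM against 79.5, 107 and 89.8 FPKM, with a log2 difference of 0.12 and an interval from −0.192 to 0.428.

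**Figure D2:**
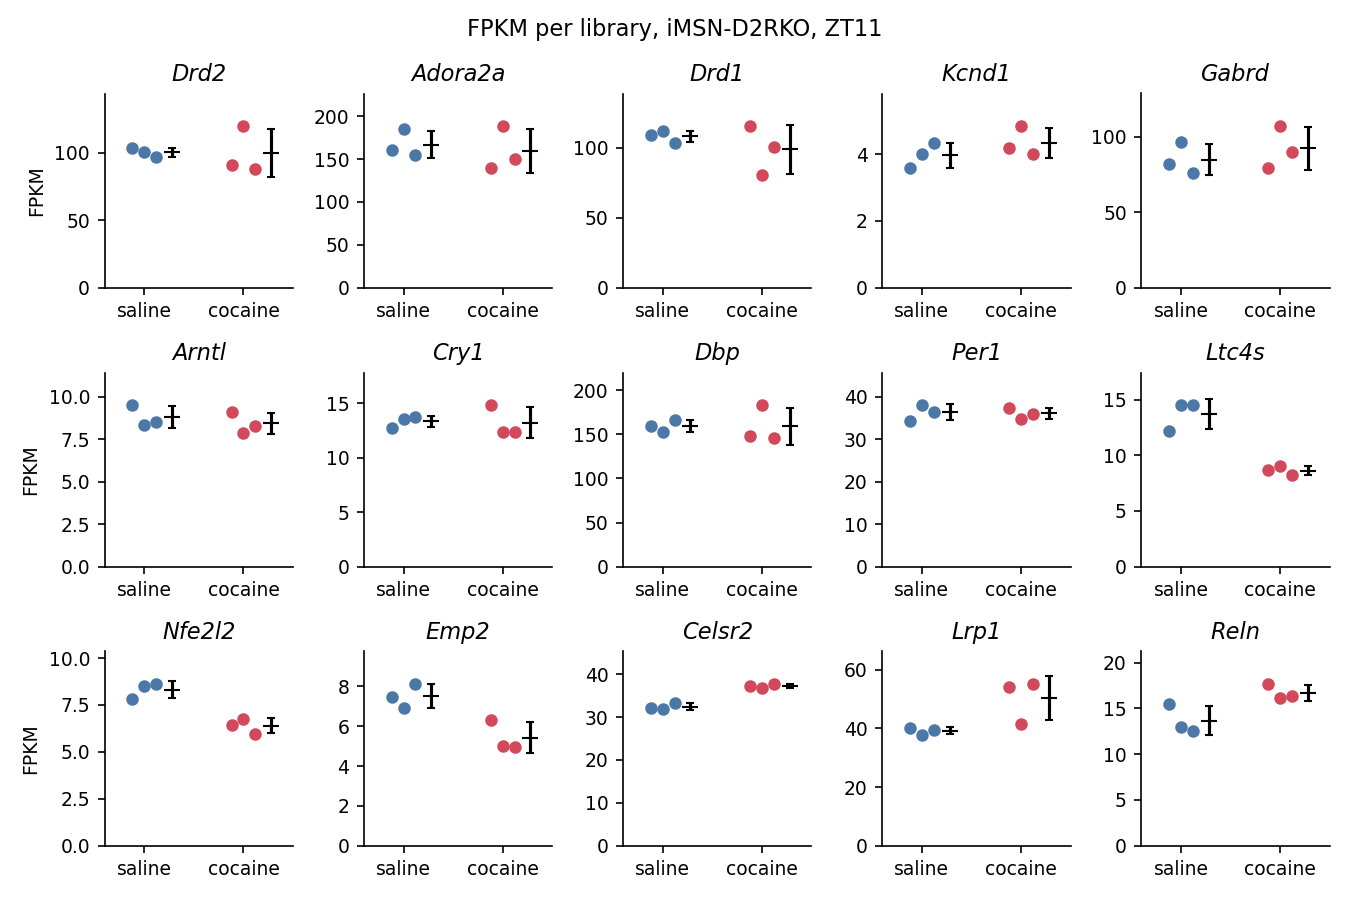
FPKM (vertical axis, from 0) of 15 genes in the 3 saline and 3 cocaine libraries of iMSN-D2RKO mice at ZT11. Points are libraries and the black marks give the mean and SD. The receptors, channels and clock genes overlap between groups, while Ltc4s, Nfe2l2 and Emp2 lie lower and Celsr2, Lrp1 and Reln higher after cocaine. These 6 genes were chosen for that separation.

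Genes of the circadian clock overlapped between the groups, most with narrow intervals in the fit to the 6 libraries. Of the 20 clock genes tested, 10 were higher and 10 lower after cocaine, with a median log2 difference of 0.00106, and with any 1 of the 6 libraries left out that median stayed between −0.00893 and 0.0148. None of the 20 had groups that did not overlap. Arntl, which encodes the activator BMAL1, read 9.51, 8.35 and 8.52 FPKM after saline and 9.10, 7.89 and 8.29 FPKM after cocaine, with an interval from −0.250 to 0.139. Dbp, an output gene of the clock that is high late in the light phase, read 159, 152 and 166 FPKM against 148, 183 and 146 FPKM, with an interval from −0.254 to 0.236. The repressor Per1 read 34.3, 38.1 and 36.5 FPKM against 37.4, 34.8 and 36.0 FPKM, with an interval from −0.173 to 0.157. Cry1, another repressor, read 12.7, 13.5 and 13.7 FPKM against 14.8, 12.3 and 12.4 FPKM. Intervals are wider in the fit to 66 libraries. The SE of the log2 difference there was 0.34 for Dbp, 0.22 for Arntl, 0.21 for Per1 and 0.15 for Cry1. The largest log2 difference among the 20, −0.19, was that of Bhlhe40, a repressor that also responds to activity, at 24.1, 18.2 and 22.03 FPKM against 16.4, 20.9 and 18.9 FPKM.

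Immediate early genes, which report recent neuronal activity, differed more among libraries of 1 group than between groups. Fos read 1.85, 10.5 and 8.48 FPKM after saline and 7.07, 16.0 and 2.1 FPKM after cocaine, and the interval of its log2 difference ran from −1.5 to 1.8. Npas4 read 2.85, 8.88 and 12.8 FPKM against 11.5, 17.4 and 3.74 FPKM. Arc, which encodes a synaptic protein, read 25.99, 62.8 and 43.0 FPKM against 33.6, 68.5 and 28.7 FPKM. Saline replicate 1 and cocaine replicate 3 were the low libraries for all 3 genes, and cocaine replicate 2 the high one. Over the 20 members 12 were higher and 8 lower with a median of 0.028. Left-out libraries moved that median from −0.0754 to 0.159 and the number higher from 6 to 17. At this spread a change of Fos inside its interval was not detectable.

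Genes of the PPAR pathway, lipid-sensing nuclear receptors and their partners, did not separate. Pparg itself was below the level for testing, at 0.634, 0.311 and 0.292 FPKM after saline and 0.337, 0.323 and 0.435 FPKM after cocaine. Of the 12 tested receptors and coactivators 9 were higher, with a median of 0.0247, and with 1 library left out as few as 6 were higher and the median ranged from −0.00136 to 0.0484. Of 18 metabolic genes known to respond to PPARs 6 were higher and 12 lower, and their median of −0.0918 stayed between −0.0986 and −0.036 with any 1 library left out. Pdk4, which restrains pyruvate oxidation, read 3.33, 4.25 and 4.20 FPKM against 3.61, 2.85 and 3.59 FPKM, and its groups overlap. No gene of either list passed a threshold. Among the members of the 41 gene lists, Casp8 lay close under the level for testing, with a highest value of 0.885 FPKM, and Bcl2l11 just above it, with a highest value of 1.01 FPKM.

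Genes for ion channels and for glutamate and GABA-A receptors had slightly higher means after cocaine, without a member past the adjusted threshold. Of 32 potassium channel genes 28 were higher and the median log2 difference was 0.0973. The numbers were 19 of 22 for glutamate receptors (0.0871), 10 of 13 for GABA-A receptor subunits (0.0971) and 20 of 25 for sodium and calcium channels (0.0711), beside 48.5% of all tested genes and a median of −0.00246. With any 1 of the 6 libraries left out, all 4 medians stayed above 0, the lowest being 0.032, 0.0496, 0.022 and 0.0285. The numbers of higher members then fell to as few as 22 of 32, 16 of 22, 7 of 13 and 15 of 25. They also stayed above 0 after median-of-ratios scaling and quantile normalization. The members whose groups did not overlap were few, 3 of the 32, 2 of the 22, none of the 13 and 2 of the 25, all higher, beside 2.21% of all genes.

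Among the channels and receptors, Grin2b had the largest difference. This subunit of the NMDA receptor read 12.1, 8.85 and 11.6 FPKM after saline and 16.2, 12.3 and 14.3 FPKM after cocaine, a log2 difference of 0.37 with an interval from 0.0454 to 0.690. Its p was 0.0305 in limma's fit to the 6 libraries and 0.555 in the fit to 66. Cacna1e, an R-type calcium channel subunit, read 22.6, 19.2 and 23.3 FPKM against 32.9, 23.8 and 25.5 FPKM, with an interval from 0.00629 to 0.626. Cocaine replicate 1 was the highest library for both.

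Smaller differences were seen for potassium channels. Kcnd3, an A-type channel, read 9.09, 8.07 and 8.90 FPKM after saline and 10.6, 9.30 and 10.2 FPKM after cocaine, with an interval from −0.00154 to 0.370. Kcnh3, a channel of forebrain neurons, lay on the other side of 0, at 59.0, 66.2 and 58.7 FPKM against 49.9, 64.3 and 49.8 FPKM. The separate WT libraries at ZT11 gave medians of 0.104 for potassium channels, 0.0178 for glutamate receptors, −0.108 for GABA-A subunits and 0.0496 for sodium and calcium channels.

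Genes of the endoplasmic reticulum stress response and of the proteasome lay slightly lower after cocaine. Of 23 endoplasmic reticulum stress genes 21 were lower, with a median log2 difference of −0.0849, and of 29 proteasome subunits 25 were lower, with a median of −0.0718. Of 39 nuclear genes for oxidative phosphorylation 31 were lower (−0.0425), and of 36 cytosolic ribosomal protein genes 25 were lower (−0.0609). After quantile normalization the last 2 lists had 24 and 20 lower members, with medians of −0.0108 and −0.0149. With 1 library left out the proteasome median ranged from −0.102 to 0.00333 and the ribosomal median from −0.0964 to 0.0225, while the endoplasmic reticulum median stayed below 0, from −0.129 to −0.00696, and the oxidative phosphorylation median too, from −0.0632 to −0.000642. The counts depended on single libraries. Without cocaine replicate 3, 12 of the 23 endoplasmic reticulum genes, 13 of the 29 proteasome subunits and 16 of the 36 ribosomal genes were lower. Without saline replicate 1 the first 2 counts were 15 and 16, and without cocaine replicate 1, 20 of the 39 oxidative phosphorylation genes were lower. No member of the 4 lists passed an adjusted threshold.

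Hspa5, the chaperone BiP of the endoplasmic reticulum, read 98.3, 89.4 and 87.3 FPKM after saline and 89.2, 78.6 and 70.0 FPKM after cocaine. The groups overlap by a single pair of values, and the log2 difference of −0.21 had an interval from −0.455 to 0.0302. Xbp1, a transcription factor of the unfolded protein response, read 43.1, 41.4 and 41.1 FPKM against 40.1, 40.7 and 35.5 FPKM. It was the member of its list whose groups did not overlap, beside 2.44% of all genes. Psmb2, a proteasome subunit, read 102, 102 and 112 FPKM against 97.6, 100 and 99.9 FPKM. Psmb5 alone dominates the summed level of the proteasome, at 1575 to 3727 FPKM, and overlaps between the groups.

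**Figure D3:**
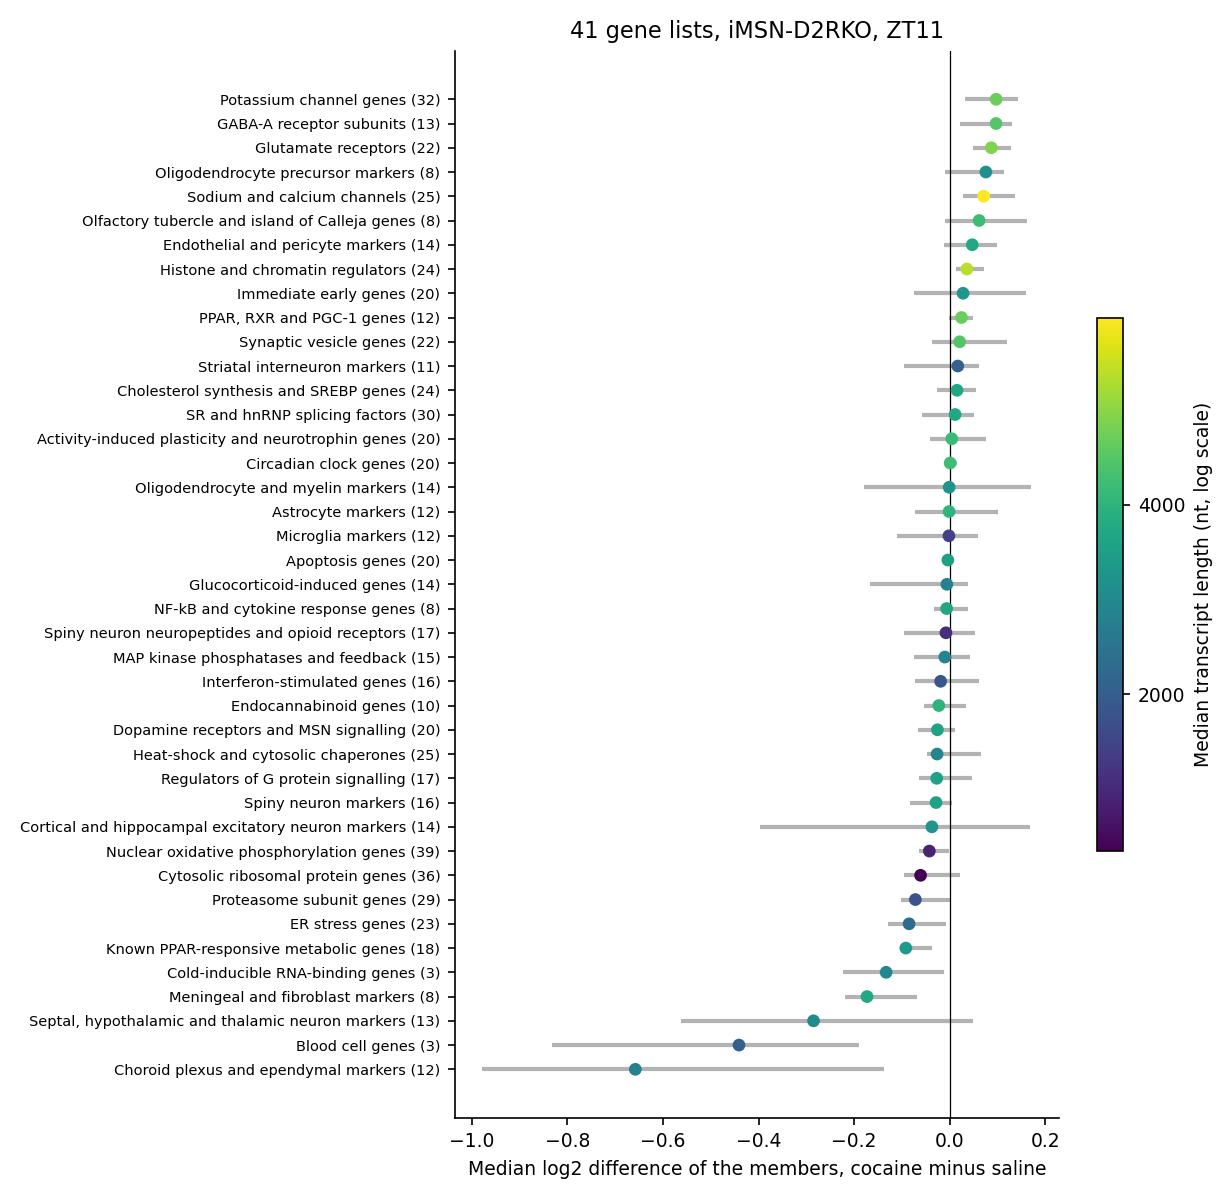
Median log2 difference between cocaine and saline of the tested members of each of 41 gene lists (points, with the number of members in brackets), coloured by the median length of the members' longest transcripts. Grey bars give the range of the median when each of the 6 libraries is left out in turn. The lists of potassium, sodium and calcium channels and of glutamate and GABA-A receptors, with long transcripts, lie right of 0. The choroid plexus list lies at −0.658.

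The lists above differ in the length of their transcripts, and the differences moved with length over all genes, a comparison chosen after the data were seen. The median of the members' longest annotated transcripts was 5099 nt for potassium channels, 5436 nt for glutamate receptors, 4688 nt for GABA-A subunits and 7926 nt for sodium and calcium channels. It was 2216 nt for endoplasmic reticulum stress genes, 1851 nt for proteasome subunits, 1363 nt for oxidative phosphorylation and 1128 nt for ribosomal proteins. The lists were not ordered strictly by length. Chromatin regulators, at 6449 nt, had a median log2 difference of 0.036, with 19 of 24 higher. That median is above the 0.0183 of all genes of 4000 to 8000 nt. Oligodendrocyte precursor markers, at 2952 nt, had a median of 0.0758, which ranged from −0.00935 to 0.114 with 1 library left out. Among 8945 genes with a mean of at least 5 FPKM and an annotated length, the 388 under 1000 nt had a median log2 difference of −0.0473, and 26.8% of them were higher after cocaine. The 566 genes of 8000 nt or more had a median of 0.0707, and 86.9% were higher. The 3 bins between had medians of −0.0406, −0.0162 and 0.0183.

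Across genes, which are not independent replicates, the Spearman correlation between length and log2 difference was 0.409 in these libraries, 0.0528 in WT mice at ZT11 and 0.605 in iMSN-D2RKO mice at ZT7. The trend kept its direction with any 1 of the 6 libraries left out, with medians from −0.0827 to −0.0311 for the shortest bin and from 0.0341 to 0.116 for the longest. Single libraries nevertheless overlapped between groups. The median deviation of the longest bin minus that of the shortest was 0.0865, −0.157 and −0.122 in the saline libraries and 0.177, −0.0835 and 0.0884 in the cocaine libraries. Saline replicate 1 thus lay with cocaine replicates 1 and 3, and cocaine replicate 2 with saline replicates 2 and 3. The part of transcript length in the list results was not tested.

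**Figure D4:**
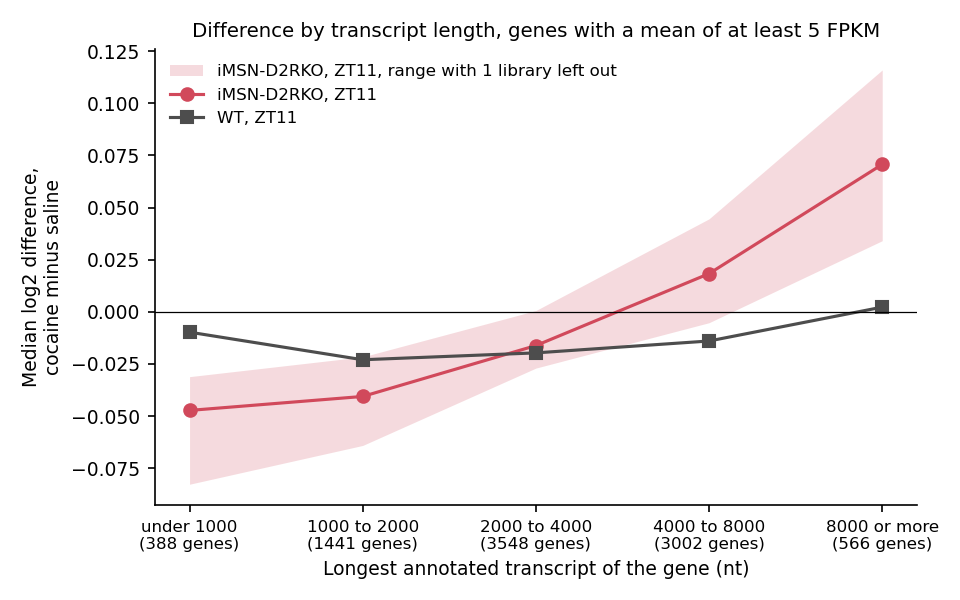
Median log2 difference between cocaine and saline (vertical axis) by the length of the longest annotated transcript (horizontal axis, 5 bins with their gene numbers), for iMSN-D2RKO and WT mice at ZT11. The shaded band is the range with each of the 6 iMSN-D2RKO libraries left out in turn. The iMSN-D2RKO medians go from −0.0473 to 0.0707 and the WT medians stay between −0.023 and 0.00224.

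Several genes with separate groups and a steady level had lower values after cocaine. They were chosen after their values were seen, from the fit to the 6 libraries, and none has an adjusted p under 0.05. Ltc4s encodes leukotriene C4 synthase (chromosome 11, 50236461 to 50238616). It read 12.2, 14.5 and 14.5 FPKM after saline and 8.63, 8.99 and 8.197 FPKM after cocaine, 13.7 ± 1.33 against 8.61 ± 0.397 (SD, n = 3 each). The log2 difference was −0.61 with an interval from −0.817 to −0.409, and limma gave an unadjusted p of 0.000164 in the fit to the 6 libraries and 0.146 in that to 66. With any 1 library left out the log2 difference stayed between −0.69 and −0.57. In WT mice at ZT11 Ltc4s read 9.22, 16.1 and 12.1 FPKM after saline and 9.08, 13 and 9.55 FPKM after cocaine, and the WT groups overlap. The difference between the genotypes was −0.41 (SE 0.59) with an unadjusted p of 0.492 in limma's fit.

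Nfe2l2 encodes NRF2, the transcription factor of the antioxidant response (chromosome 2, 75675513 to 75704641). It read 7.79, 8.50 and 8.62 FPKM after saline and 6.44, 6.76 and 5.96 FPKM after cocaine, a log2 difference of −0.33. Emp2, a tetraspan membrane protein (chromosome 16, 10281749 to 10313968), read 7.49, 6.91 and 8.13 FPKM against 6.33, 5.01 and 4.95 FPKM, a log2 difference of −0.41. Its neighbour Tekt5, a gene of the tektin family of ciliary proteins (chromosome 16, 10357948 to 10395490), read 8.92, 9.06 and 9.53 FPKM against 7.80, 6.74 and 7.48 FPKM. Ifitm2, an interferon-induced membrane protein, read 9.45, 8.197 and 7.70 FPKM against 6.54, 6.29 and 4.55 FPKM. The list of interferon-stimulated genes did not follow it, with 8 of 16 tested members higher and 8 lower.

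Clec16a, a gene of endosomal and mitochondrial turnover on the same part of chromosome 16 (10545339 to 10744878), was named by the rule for the smallest p among higher genes. It read 15.3, 13.8 and 13.8 FPKM after saline and 17.4, 18.7 and 17.8 FPKM after cocaine, 14.3 ± 0.876 against 18.0 ± 0.673 (SD, n = 3 each). The log2 difference of 0.31 had an interval from 0.143 to 0.482, and limma's p was 0.00311 in the fit to the 6 libraries and 0.115 in that to 66. Prkch, a protein kinase C, was named by the same rule and overlapped between groups, at 17.7, 21.3 and 16.2 FPKM against 24.4, 21.2 and 19.9 FPKM. The other rule-named genes of this direction that are not short entries were 1700048O20Rik, Cdc5l and the joined entry Fam65a,Mir1966. Each of them overlapped between groups or had 1 library far from the rest.

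Higher genes chosen after their values were seen included large membrane and matrix proteins. Celsr2, an adhesion receptor of the cadherin family (chromosome 3, 108390851 to 108415552), read 32.0, 31.8 and 33.4 FPKM after saline and 37.2, 36.9 and 37.8 FPKM after cocaine, a log2 difference of 0.20. Lrp1, an endocytic lipoprotein receptor, read 40.2, 37.8 and 39.5 FPKM against 54.0, 41.6 and 55.2 FPKM. Reln, which encodes the extracellular protein reelin, read 15.4, 12.97 and 12.6 FPKM against 17.7, 16.1 and 16.3 FPKM. Lars2, the mitochondrial leucyl-tRNA synthetase, read 137, 108 and 105 FPKM against 162, 140 and 208 FPKM, a log2 difference of 0.53. Among genes with a mean of at least 5 FPKM and an unadjusted p under 0.05 in the fit to the 6 libraries, the 38 higher genes had a median transcript length of 6027.5 nt and the 48 lower genes 1517.5 nt, beside 3453 nt for all genes of that level.

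Pla2g4e, a cytosolic phospholipase A2 gene (chromosome 2, 120166412 to 120245335), was named by the rule for the smallest p among lower genes. It read 5.61, 9.67 and 6.07 FPKM after saline and 1.72, 5.52 and 1.44 FPKM after cocaine, 7.12 ± 2.22 against 2.89 ± 2.28 (SD, n = 3 each). The groups come within a small gap, since cocaine replicate 2 lies just under the lowest saline library. The log2 difference of −1.18 (SE 0.52) had an unadjusted p of 0.0273 in limma's fit to 66 libraries and an adjusted p of 1, and it ranged from −1.62 to −0.91 with 1 library left out. In the WT libraries Pla2g4e read 4.99, 1.08 and 5.30 FPKM after saline and 0.738, 1.29 and 1.60 FPKM after cocaine, and at ZT7 in iMSN-D2RKO mice 0.991, 0.739 and 0.680 FPKM against 0.914, 0.733 and 4.4 FPKM. The WT saline group and the cocaine group at ZT7 each hold 1 library far from the other two.

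Transcripts of the choroid plexus, the epithelium of the ventricles that secretes cerebrospinal fluid, were high in 1 saline library, and several of the lower genes belong to them. All 12 choroid plexus and ependymal markers had lower means after cocaine, with a median log2 difference of −0.658, and 5 had an unadjusted p under 0.05 in the 66-library fit, beside 0.259% of all genes. Their summed level was 1410, 82.0 and 76.4 FPKM in the saline libraries and 76.6, 67.2 and 103 FPKM in the cocaine libraries. Ttr, with Enpp2 at 230 FPKM, made up most of the sum in saline replicate 1. Ttr, the transthyretin that choroid plexus secretes, read 1104, 0.557 and 0.121 FPKM after saline and 0.284, 0.215 and 0.792 FPKM after cocaine. Folr1, a folate receptor, read 8.95, 0.467 and 0.756 FPKM against 0.358, 0.121 and 0.359 FPKM, and the water channel Aqp1 read 3.46, 0.118 and 0.302 FPKM against 0.0910, 0.0970 and 0.113 FPKM. The ependymal markers were less particular to that library. Foxj1 read 9.99, 6.99 and 10.1 FPKM after saline and Tmem212 10.2, 5.42 and 9.95 FPKM, and both were lowest in cocaine replicate 2 (4.95 and 1.5 FPKM). Ccdc153 was highest in saline replicate 1, at 8.98, 3.1 and 5.67 FPKM after saline. Without saline replicate 1, 10 of the 12 were lower, the median was −0.138 and none had p under 0.05.

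Igf2, which choroid plexus and meninges produce, was highest in the same library. It read 20.5, 10.8 and 9.96 FPKM after saline and 7.87, 7.55 and 7.89 FPKM after cocaine, with a log2 difference of −0.68 (SE 0.25) and an unadjusted p of 0.009 in the limma fit to 66 libraries. Without saline replicate 1 the difference was −0.38, with an unadjusted p of 0.162 in that fit and 0.0025 in the fit to the remaining 5 libraries, where the groups do not overlap. Clic6, a chloride channel protein in the choroid list, read 14.7, 7.86 and 6.42 FPKM against 8.04, 5.56 and 5.66 FPKM, and its log2 difference went from −0.46 to −0.14 without that library. The summed levels of markers of other neighbouring tissue overlapped between the groups. Summed myelin genes read 4013, 3476 and 2404 FPKM after saline and 2828, 2988 and 4142 FPKM after cocaine, and summed meningeal and fibroblast genes read 317, 245 and 166 FPKM against 239, 253 and 439 FPKM. Of the 8 meningeal and fibroblast genes, 6 were lower, with a median of −0.173, and 2 had groups that did not overlap, Igf2 and the collagen gene Col1a2, beside 2.44% of all genes. Genes of blood cells summed to 203, 107 and 149 FPKM against 80.8, 179 and 82.3 FPKM. Each of the 3 tested entries was lower, with a median of −0.441, from −0.833 to −0.19 with 1 library left out. A second entry of Hba-a1,Hba-a2, outside that sum, read 37.8, 22.6 and 27.0 FPKM after saline and 10.8, 21.8 and 14.45 FPKM after cocaine. Its groups did not overlap, and its log2 difference was −0.875. Its unadjusted p was 0.119 in limma's fit to 66 libraries and 0.0116 in the fit to the 6. Of 13 septal, hypothalamic and thalamic markers 11 were lower, with a median of −0.285, from −0.562 to 0.048 with 1 library left out. Of 14 cortical and hippocampal markers 8 were lower, and their median of −0.0372 ranged from −0.397 to 0.168. The part of these tissues in other differences was not tested.

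**Figure D5:**
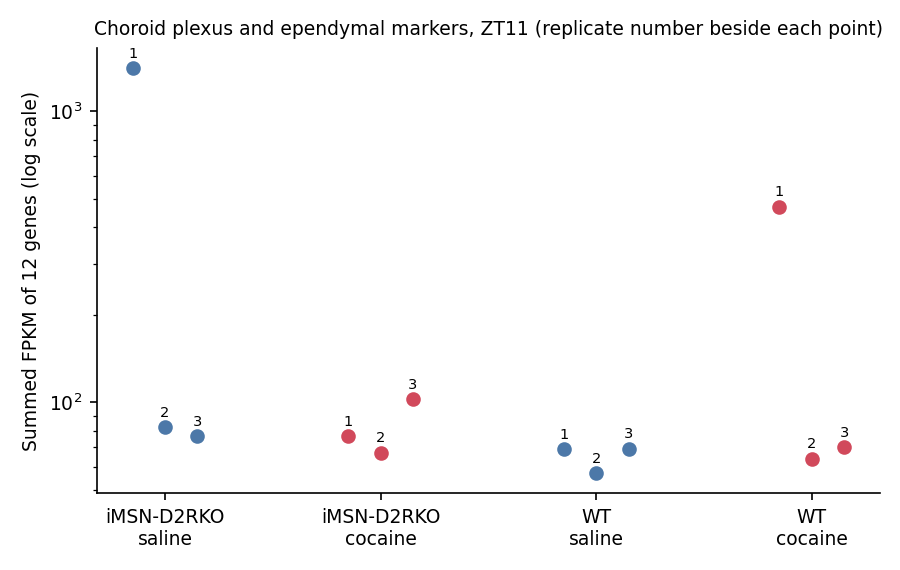
Summed FPKM of 12 choroid plexus and ependymal markers (vertical log axis) in the 12 libraries of both genotypes at ZT11, with the replicate number beside each point. Saline replicate 1 of iMSN-D2RKO mice, at 1410 FPKM, and cocaine replicate 1 of WT mice, at 471 FPKM, lie above the other 10 libraries.

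Short annotated entries made up a larger share of the genes with a small p than of all genes. Entries under 200 nt were 1.19% (155) of the 13023 tested genes with an annotated length. They were 19.2% of the genes with an unadjusted p under 0.05 in the 66-library fit (10 of 52). Of those 52 genes 42 had a mean under 5 FPKM and 12 were listed at 0 in at least 3 of the 6 libraries. Snora78, a small nucleolar RNA that guides pseudouridylation, was listed at 0 in each of the 3 saline libraries and at 5.62, 6.86 and 6.63 FPKM after cocaine. It lies on chromosome 17, 24719676 to 24719803, minus strand, in an intron of Snhg9 and opposite an intron of Rps2. It met the level for testing through the cocaine libraries alone. It was the only gene called in limma's fit to the 6 libraries (adjusted p = 0.00015), where the saline libraries have no spread for it. It was called there again with any 1 of the 6 left out (adjusted p from 0.00101 to 0.00437). Those fits reuse the same values and are no separate support. The 66-library fit gave an unadjusted p of 0.0253. In WT mice at ZT11 the entry read 7.18, 0 and 14.2 FPKM after saline and 7.31, 15 and 0 FPKM after cocaine, so that values at 0 occur in both treatments. At ZT7 in iMSN-D2RKO mice it read 20.6, 8.55 and 12.9 FPKM after saline and 6.21, 9.65 and 0 FPKM after cocaine, with a lower mean after cocaine.

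The miRNA entries named by the rule are shown with the mature sequences that RefSeq places in them (GRCm38.p6, 5′ to 3′), to make plain which small RNAs the entries stand for. Capitals mark the seed, bases 2 to 8. All 7 miRNA symbols named by the rule had a mature sequence, and the 3 shown are those that form an entry of their own.
mmu-miR-3473e (chr5:31667296-31667316, minus strand): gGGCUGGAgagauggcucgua
mmu-miR-6481 (chr3:99199367-99199385, minus strand): cACUGAAAaugcuuagaug
mmu-miR-8102 (chr11:97744974-97744995, plus strand): uCACGCGGgggaacgaggaaga

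The 3 seeds differ from one another. The libraries were made from poly(A) RNA, so that the FPKM of such an entry counts fragments over the hairpin locus and not the mature miRNA. Mir3473e, which lies in an intron of Rbks on the same strand, was listed at 0 in the saline libraries and at 173, 0 and 171 FPKM after cocaine. Mir6481, opposite an intron of Wars2, was listed at 0 in 5 libraries and at 191 FPKM in cocaine replicate 3. Mir8102, where the annotation holds no other gene, was listed at 36.0, 58.5 and 0 FPKM after saline and at 0 in the cocaine libraries.

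Other entries with small RNAs rested on 1 library each. Snora69, in an intron of Rpl39, was above 0 in cocaine replicate 2 alone, at 31.1 FPKM, and Snora33, in an exon of Rps12, in saline replicate 3 alone, at 462 FPKM. The joined entry Mir664,Snora36b stood at 110 FPKM in saline replicate 2 and at 0 elsewhere. Kif27,Mir6369 read 2.86, 312 and 2.05 FPKM after saline and 2.95, 2.43 and 2.27 FPKM after cocaine. Cd27,Mir8113 read 41.7 FPKM in saline replicate 2 and under 0.2 FPKM in the other 5.

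Whether cocaine acted differently in the 2 genotypes at ZT11 was asked by the difference of the cocaine effects, iMSN-D2RKO minus WT. No gene passed the adjusted threshold in limma's fit, and 64 genes (0.474%) had an unadjusted p under 0.05, 13 with a higher and 51 with a lower effect in iMSN-D2RKO mice. Across the 9458 genes with a mean of at least 5 FPKM, the cocaine effects of the 2 genotypes, which share no library, had a Pearson correlation of 0.0141. In WT mice alone 82 genes (0.607%) had an unadjusted p under 0.05 in the 66-library fit and 797 (5.9%) in the fit to their own 6 libraries, beside 52 and 168 in iMSN-D2RKO mice. The 5.9% is near the nominal probability of 0.05, and the genes were those kept by the iMSN-D2RKO libraries. In limma's fit to the 6 WT libraries 1 gene passed the adjusted threshold (adjusted p = 0.0142). Ace, the angiotensin-converting enzyme found in striatal neurons, choroid plexus and vessels, had the smallest p among genes with a mean of at least 5 FPKM, with a difference of −1.09 (SE 0.38, unadjusted p 0.0063 in limma's fit). In the WT libraries Ace read 4.10, 4.69 and 3.58 FPKM after saline and 8.19, 7.20 and 6.37 FPKM after cocaine. The WT groups did not overlap, with or without WT cocaine replicate 1.

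Of the 3 genes of smallest p at that level, Ace and 1500015O10Rik had smaller differences with libraries rich in choroid plexus transcripts left out. WT cocaine replicate 1 held a summed choroid level of 471 FPKM, beside 64.1 and 70.1 FPKM in the other WT cocaine libraries and 57.2 to 69.3 FPKM after saline. Without that library and saline replicate 1 of iMSN-D2RKO mice, the difference for Ace was −0.55 with an unadjusted p of 0.148 in limma's fit. That for 1500015O10Rik went from −2.81 to −1.16, with an unadjusted p of 0.0146 and then 0.315. Below that level the choroid markers Aqp1 (−1.18, unadjusted p 0.00148) and Folr1 (−1.96, unadjusted p 0.00291) had smaller p than Ace, and without both libraries their differences were −0.15 and −0.50. The joined entry Mir8098,Wdfy2 had a difference of −2.54 with an unadjusted p of 0.0142, and −3.74 without both libraries. In WT mice it read 3.11, 2.59 and 4.04 FPKM after saline and 3.62, 25.1 and 24.6 FPKM after cocaine. The number of genes with an unadjusted p under 0.05 fell from 64 to 28 without both libraries, and was 31 without the iMSN-D2RKO library alone and 34 without the WT library alone.

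Whether the effect had changed since 4 h after the injection was asked by the difference between ZT11 and ZT7 in iMSN-D2RKO mice. No gene passed the adjusted threshold in limma's fit, and 773 genes (5.72%) had an unadjusted p under 0.05, beside 52 for ZT11 alone and 3207 (23.7%) for ZT7 alone. For ZT7 alone 1 gene passed the adjusted threshold in limma's fit to 66 libraries (adjusted p = 0.0163). Zyx, the focal adhesion protein zyxin, had the smallest p among genes with a mean of at least 5 FPKM, with a difference of 0.74 (SE 0.23, unadjusted p 0.00187 in limma's fit). At ZT7 Zyx read 19.4, 15.3 and 13.5 FPKM after saline and 8.10, 9.23 and 11.1 FPKM after cocaine, groups that did not overlap, while its log2 difference at ZT11 was 0.04. With limma array weights, whose estimation did not fully converge, 288 genes passed the adjusted threshold for this contrast, Zyx among them (adjusted p = 0.0125). Rell2, a membrane protein that binds a member of the TNF receptor family, had a difference of 0.88 (SE 0.27, unadjusted p 0.00188). At ZT7 it read 127, 75.4 and 71.9 FPKM after saline and 59.2, 40.3 and 56.5 FPKM after cocaine. Slc35c2, a nucleotide sugar transporter, had a difference of 0.71 (SE 0.22, unadjusted p 0.00205).

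The libraries at ZT7 were much more scattered. Their median SD over genes was 0.375 after saline and 0.251 after cocaine on the log2 scale, beside 0.0996 and 0.109 at ZT11, and cocaine replicate 2 at ZT7 is 1 of 13 libraries of the series that stand apart on the first axis of the within-group differences. None of the 6 libraries at ZT11 is among the 13. Saline replicate 1 at ZT7 had a total of 690048 FPKM, beside 392640 to 410697 FPKM in the other 5 libraries at ZT7, and was the highest library for Zyx, Rell2 and Slc35c2 there. Without it, 238 genes in place of 773 had an unadjusted p under 0.05, and without saline replicates 2 and 3 at ZT7, each left out alone, 1880 and 2157. The number was 445 without cocaine replicate 2 at ZT7, and 474 and 513 without cocaine replicate 2 and saline replicate 3 at ZT11. The medians at ZT7 by transcript length ran from −0.575 for the shortest bin to 0.425 for the longest. The list medians at ZT7 were −0.665 for oxidative phosphorylation, −0.431 for the proteasome, 0.485 for GABA-A subunits and 0.307 for chromatin regulators, beside −0.0425, −0.0718, 0.0971 and 0.036 at ZT11. The part of that scatter in the differences between the times was not tested.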

How the data were processed

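RNA of nucleus accumbens tissue was sequenced as poly(A) libraries, 66 in 22 groups of 3. The authors aligned the reads to mm10 with TopHat and Bowtie, and the deposited FPKM values per gene come from Cuffnorm; the submitters' notes also name CASAVA 1.8.2. The deposited tables hold no counts, so the depth of a library is not known and no counting interval is given. Samples were grouped by their labels, and the columns of the authors' tables were matched to samples by name.

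Values were taken as log2(FPKM + 1), which understates changes of low genes, and fitted with limma 3.58.1 (R 4.3.3) with a trended prior, all 66 libraries in one model, two-sided, with Benjamini-Hochberg adjustment at 0.05. The deposited FPKM were not rescaled. Genes needed 1 FPKM in at least 1 of the 6 libraries. Contrasts were cocaine minus saline in iMSN-D2RKO mice at ZT11, its difference from WT, and its difference from ZT7. Alternatives were other pseudocounts, filters, scalings and library sets, array weights, Dixon's test, a replicate block and left-out libraries. The fits that leave out or block libraries among the 6 alone were chosen after seeing the data. So were those that leave out both libraries rich in choroid plexus transcripts, or the 13 libraries that stand apart. The scripts were tested on simulated data.

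Genes named were the 8 higher and 8 lower genes of smallest p at a mean of at least 5 FPKM, the 4 and 4 of largest difference with p under 0.05 and a mean of at least 1 FPKM, genes the study names, the 2 members of smallest p of each of 41 lists, and the 3 genes of smallest p in each other test at a mean of at least 5 FPKM. Further list members are given to describe their list, and other genes were chosen after their values were seen. Members and lists were chosen with earlier results of these data known. Coordinates and transcript lengths are those of GENCODE on GRCm38, and miRNA sequences are from RefSeq. Entries that join several genes cannot be split.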

Additional observations from a re-analysis of the deposited data

How the results depend on the processing

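The absence of calls for cocaine against saline held under 12 of 25 alternatives, and the others gave at most 2 calls. There were 2 without a filter on low values (Prl and Gm11351), 1 with only the 6 libraries (Snora78), 1 with those libraries and a replicate block, and 2 with values beyond Dixon's limit dropped. Leaving out 1 library gave 0 to 2 calls in the 66-library fit and 1 to 2 in the fit to the 6 libraries, with 37 to 71 and 132 to 380 genes at an unadjusted p under 0.05 (380 without saline replicate 1, 255 without cocaine replicate 2). The calls came without cocaine replicate 3 (2: Gh and Snora69), without saline replicate 1 (2: Mir664,Snora36b and Defb5) and without saline replicate 3 (1). Array weights, whose estimation did not fully converge on the 66 libraries, gave 0 calls with 573 genes at an unadjusted p under 0.05. The difference from WT had 2 calls with array weights and 4 with Dixon's test, and the difference from ZT7 had 288 and 2. The log2 difference of Kif27,Mir6369 ranged from −3.3 to 0.0448 with 1 library left out, the last without saline replicate 2, in both fits. Of 3198 values of named genes under alternatives, 3163 moved by less than the SD within groups and did not come to pass the adjusted threshold. A change of sign was counted among these 3163 where limma's unadjusted p was 0.05 or more in both settings. The cause of the other shifts was not tested. Deviations of same-numbered libraries correlated at 0.153, 0.0348 and −0.126, and those of differently numbered libraries from −0.229 to 0.17. With 3 libraries in a group these values cannot decide whether the replicate number pairs them. With the replicate block on all libraries there were 0 calls and 54 genes at an unadjusted p under 0.05, and 0 calls for both differences. Without the 13 libraries that stand apart there were 0 calls, and 74 genes had an unadjusted p under 0.05 in limma's fit. The 95% interval of a log2 difference, before any adjustment, was ±0.449 for a typical gene with a mean of at least 5 FPKM. It was ±0.328 without those 13 libraries.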
